A study of Mus musculus with 6 samples.

Results

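The genes described here encode the protein complexes that set up apical-basal polarity in epithelial cells. They are 10 genes listed for their known function, a choice made with earlier results of these data known: Crb3 of the Crumbs complex, Pard3, Pard6a, Pard6b, Prkci and Prkcz of the PAR-aPKC complex, and Llgl1, Llgl2, Scrib and Dlg1 of the Scribble complex. They are 10 of the 24214 RefSeq gene entries listed in the count tables, each called a gene below. All 10 were among the 13892 genes with enough reads to be tested. 393P cells are an epithelial lung adenocarcinoma line derived from mouse and are labelled as KP lung cancer cells of strain C57BL/6. They had been transfected with either an empty vector (393P_vector) or a ZEB1 expression vector (393P_ZEB1), and total RNA of 3 samples per group was sequenced on the SOLiD platform. Both groups were grown in RPMI-1640 with serum, and according to the methods stable transfectants were selected with puromycin or G418. The labels do not say whether the 3 samples of a group came from separate transfections or cultures, so the p-values measure the spread between these samples, which may be technical.

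Epithelial cells divide their surface into an apical domain facing the lumen and a basolateral domain facing neighbouring cells and the basement membrane, with junctions between them. The transmembrane protein Crumbs marks the apical domain, the PAR3, PAR6 and atypical protein kinase C (aPKC) proteins act at the apical side and the junctions, and Scribble, DLG and LGL mark the basolateral side. aPKC phosphorylates LGL and keeps it off the apical membrane, while LGL holds PAR6 and aPKC in check basolaterally. ZEB1 is a zinc-finger transcription factor that represses epithelial genes during epithelial-mesenchymal transition.

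Total counts per sample ranged from 54442450 to 79158012, so 3 reads corresponded to 0.0361 to 0.0561 CPM (read counts scaled to the size of each library). Zeb1, which checks the labels, measured 21.2, 22.0 and 21.4 CPM in 393P_vector and 54.9, 48.9 and 51.3 CPM in 393P_ZEB1 (log2 fold change 1.26, SE 0.10, adjusted p = 6.06e-05, edgeR quasi-likelihood test with Benjamini-Hochberg adjustment). The sources used here do not state the species of the ZEB1 cDNA, and if it is not mouse, the reads on mouse Zeb1 need not measure the transcript of the vector. The other tested genes of its chromosome, 18, had a median log2 fold change of 0.64, and Zeb1 rose by 0.63 relative to its chromosome (adjusted p = 0.00271). 393P_vector replicate 3 stood apart: 4.996% and 5.51% of tested genes differed at least 2-fold between it and replicates 1 and 2, against 0.0648% between replicates 1 and 2. Results that rest on it are given with and without it. The epithelial markers Cdh1, Epcam, Krt8 and Krt18 summed to 3347 to 3629 CPM in 393P_vector and 1878 to 1999 CPM in 393P_ZEB1, and all 4 fell. Most of these sums was Krt8 and Krt18, whose mean CPM fell from 894 to 585 and from 2264 to 1327. The mean of Cdh1 fell further, from 162 to 9.51 CPM, and that of Epcam from 122 to 1.31 CPM. Of 5 lung lineage markers, Scgb1a1 had 0 counts in every sample, Nkx2-1, Sftpc and Sftpb were about at the level of 3 reads, and the list summed to 2.69 to 3.09 CPM in 393P_vector and 0.234 to 0.360 CPM in 393P_ZEB1, nearly all of it Foxj1. Leukocyte markers summed to 2.02 to 4.12 and 1.51 to 1.90 CPM, endothelial markers to 2.26 to 2.46 and 0.630 to 0.868 CPM, and fibroblast markers to 2.13 to 2.91 and 0.936 to 1.10 CPM, in 393P_vector and 393P_ZEB1 respectively. The part of these markers in the results below was not tested.

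Of the 10 polarity genes, 4 fell in 393P_ZEB1 cells (Crb3, Pard6b, Prkcz and Llgl2), 2 rose (Llgl1 and Dlg1) and 4 did not pass the test (Pard3, Pard6a, Prkci and Scrib). Thus 6 of 10 were called at an adjusted p below 0.05, where 37.6% of all tested genes were called, 18.3% higher and 19.3% lower. The groups did not overlap for 7 of the 10, against 52.8% of all tested genes. The median log2 fold change of the 10 was -0.15, beside -0.02 for all tested genes, and their median absolute log2 fold change was 0.58, beside 0.39. Each of the 3 complexes had at least 1 gene that fell, and both genes that rose belonged to the Scribble complex. These are bulk RNA samples, in which fewer cells of a type and less RNA per cell cannot be told apart.

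**Figure D1:**
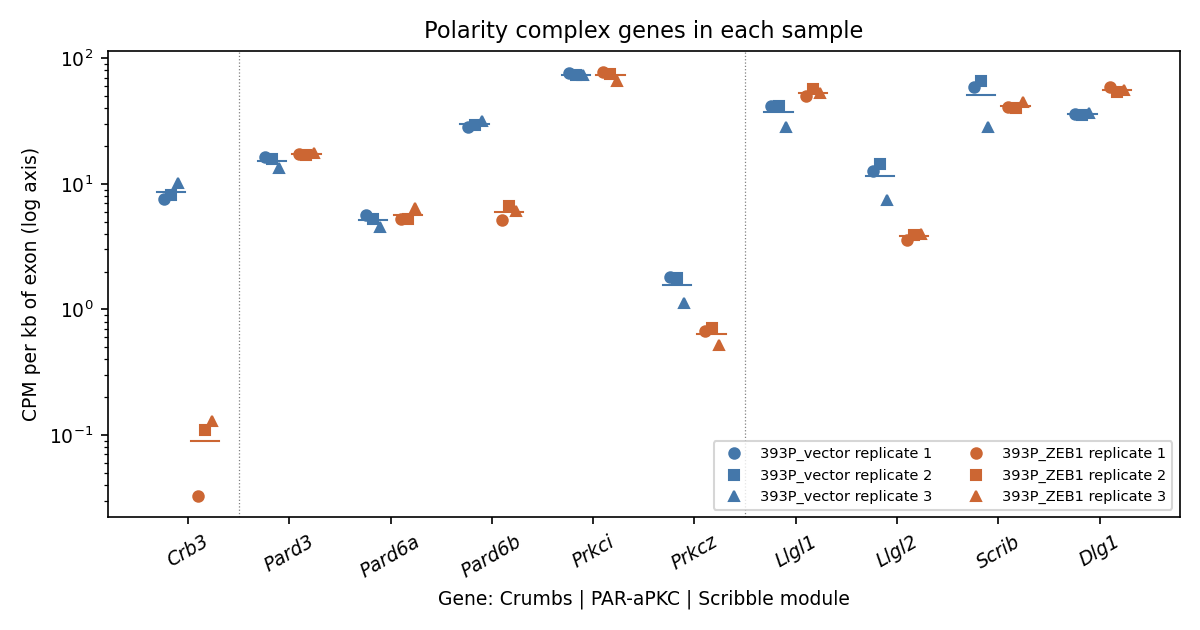
Level of each polarity gene in every sample, in CPM per kilobase of exon on a log axis, with the 3 samples of 393P_vector (blue) and of 393P_ZEB1 (orange) as points, a marker shape for each replicate number, and the group mean as a line. Crb3 lies between 7.62 and 10.2 in the vector samples and at most at 0.128 in the ZEB1 samples, and the groups overlap for Pard6a, Prkci and Scrib.

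Crb3 encodes the Crumbs protein of mammalian epithelia, a short transmembrane protein that recruits PALS1 and PATJ to the apical membrane. The gene (chr17:57062277-57065914, plus strand, 1152 exonic bases in 4 exons) measured 8.78, 9.33 and 11.7 CPM in 393P_vector and 0.0374, 0.126 and 0.147 CPM in 393P_ZEB1. It was low in every ZEB1 sample, with 2, 7 and 9 reads against 497, 549 and 972 in the vector samples. The log2 fold change was -6.53 (SE 0.35, adjusted p = 7.05e-06, edgeR). The 18 reads of the ZEB1 samples together (exact Poisson 95% interval 10.7 to 28.4) corresponded to 1.04% of the vector level (interval 0.617% to 1.65%), covering counting error only. Over 10 reads were counted on 3, 3 and 4 of its exons in the vector samples. The count of 0 such exons in every ZEB1 sample follows from the 2, 7 and 9 reads of the whole gene there. Crb3 entered the test through its reads in 393P_vector. In the GENCODE annotation, 14 of its 1564 exonic bases (0.895%) overlap Dennd1c on the opposite strand. No other gene interval of the count tables overlaps that of Crb3. The other tested genes of chromosome 17 had a median log2 fold change of -0.43.

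Sequences around annotated starts of these genes are shown because ZEB1 is known to bind E-box motifs of the form CACCTG, which reads CAGGTG on the other strand. In RefSeq promoter windows of GRCm38.p6, from 250 bases before to 50 after each annotated start, 20.2% of 32851 windows held at least 1 match on either strand and 2.88% held at least 2. Windows were given for 8 of the 10 genes, all but Llgl2 and Scrib, 16 windows in all, since some genes have several starts. A match was found in 8 of the 16, belonging to 6 genes, and at least 2 matches in 5, belonging to Crb3, Pard6b and Prkcz, which fell, and to Pard3, which was not called. The windows of Crb3 overlap and hold the same 4 matches, so Crb3 is counted more than once in the 8 and in the 5. With only the window nearest to the start in the count tables, 4 of the 8 genes had a match and 3 had at least 2. For each of Crb3, Pard6b, Prkcz and Pard3 a window is printed 5′ to 3′ on the strand of the gene, with the matches in capitals. It is the window nearest to the start in the count tables for Crb3, Pard6b and Prkcz, and for Pard3 that of an internal start, 235556 bases downstream.
Crb3 (chr17:57061981-57062280, plus strand): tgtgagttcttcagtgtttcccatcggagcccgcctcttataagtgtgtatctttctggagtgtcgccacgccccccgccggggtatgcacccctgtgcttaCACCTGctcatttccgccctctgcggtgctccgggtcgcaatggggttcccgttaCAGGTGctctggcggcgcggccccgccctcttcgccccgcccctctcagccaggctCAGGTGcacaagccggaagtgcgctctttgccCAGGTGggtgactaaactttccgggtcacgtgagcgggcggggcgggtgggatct
Pard6b (chr2:168080754-168081053, plus strand): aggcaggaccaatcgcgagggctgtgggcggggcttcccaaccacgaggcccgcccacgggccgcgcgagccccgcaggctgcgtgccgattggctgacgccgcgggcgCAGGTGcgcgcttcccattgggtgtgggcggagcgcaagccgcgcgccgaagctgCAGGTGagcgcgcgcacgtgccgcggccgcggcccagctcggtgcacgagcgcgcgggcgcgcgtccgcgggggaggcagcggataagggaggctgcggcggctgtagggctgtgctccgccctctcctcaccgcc
Prkcz (chr4:155361379-155361678, minus strand): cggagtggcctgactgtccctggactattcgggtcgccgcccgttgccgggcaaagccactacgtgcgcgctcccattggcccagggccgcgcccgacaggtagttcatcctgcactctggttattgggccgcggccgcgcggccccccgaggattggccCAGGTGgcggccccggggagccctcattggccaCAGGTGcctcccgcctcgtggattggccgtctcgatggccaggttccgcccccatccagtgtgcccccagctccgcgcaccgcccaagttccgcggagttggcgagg
Pard3 (chr8:127299362-127299661, plus strand): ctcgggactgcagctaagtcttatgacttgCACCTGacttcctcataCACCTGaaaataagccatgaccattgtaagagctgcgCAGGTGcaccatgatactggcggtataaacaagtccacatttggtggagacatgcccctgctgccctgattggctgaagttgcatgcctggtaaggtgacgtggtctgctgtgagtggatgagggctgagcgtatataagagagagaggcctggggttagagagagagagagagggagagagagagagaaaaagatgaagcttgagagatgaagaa
The Crb3 window held 4 matches, starting 148, 93, 37 and 5 bases before the annotated start, a number reached by 0.0548% of all windows. The Pard6b window held 2, 141 and 86 bases before the start, and the Prkcz window held 2, 90 and 57 bases before it. The Pard3 window held 3, 220, 203 and 166 bases before its start, while the Pard3 window nearest to the start in the count tables held none. One window of Dlg1 held 1 match, 43 bases after the start, as did one of Pard6a, 37 bases after a start that lies 493 bases downstream of that in the count tables, and the windows of Llgl1 and Prkci held none. Thus windows with matches belonged to genes that fell, to one that rose and to genes that were not called. A match describes the letters of the window and says nothing of binding, which was not measured in these samples.

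In the PAR-aPKC complex, the PAR6 scaffold gene Pard6b and the kinase gene Prkcz fell, and the other 3 genes did not pass the test. PAR6 proteins link aPKC to CDC42 and to Crumbs. Pard6b (chr2:168081004-168101203, plus strand) measured 96.6, 99.5 and 107 CPM in 393P_vector and 17.4, 22.5 and 20.6 CPM in 393P_ZEB1. Every ZEB1 sample lay below every vector sample, a 5.004-fold lower mean (log2 fold change -2.32, SE 0.13, adjusted p = 8.31e-06, edgeR). Its paralog Pard6a (chr8:105701154-105703494, plus strand) measured 8.02, 7.48 and 6.40 CPM in 393P_vector and 7.49, 7.49 and 9.19 CPM in 393P_ZEB1, and the groups overlapped (log2 fold change 0.14, SE 0.16, adjusted p = 0.511).

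Prkcz encodes aPKC zeta and Prkci aPKC iota, the kinases of the complex. Prkcz (chr4:155260120-155361391, minus strand) measured 8.32, 8.16 and 5.12 CPM in 393P_vector and 3.07, 3.24 and 2.38 CPM in 393P_ZEB1. The groups did not overlap, with vector replicate 3 the lowest of its group. The mean was 2.49-fold lower in 393P_ZEB1 (log2 fold change -1.31, SE 0.24, adjusted p = 0.00376, edgeR), and without vector replicate 3 the log2 fold change was -1.51 (adjusted p = 2.27e-05). Over 10 reads were counted on 10, 11 and 7 of its 19 exons in the vector samples and on 3, 3 and 4 in the ZEB1 samples. Prkci (chr3:30995771-31052740, plus strand) measured 337, 326 and 327 CPM in 393P_vector and 346, 335 and 293 CPM in 393P_ZEB1, and the groups overlapped (log2 fold change -0.02, SE 0.10, adjusted p = 0.878). Pard3, which encodes the PAR3 scaffold that places the complex at the junctions (chr8:127064056-127612286, plus strand), measured 130, 125 and 107 CPM in 393P_vector and 137, 135 and 140 CPM in 393P_ZEB1. Its ZEB1 samples all lay above its vector samples, but the difference did not pass the test (log2 fold change 0.19, SE 0.11, adjusted p = 0.21).

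**Figure D2:**
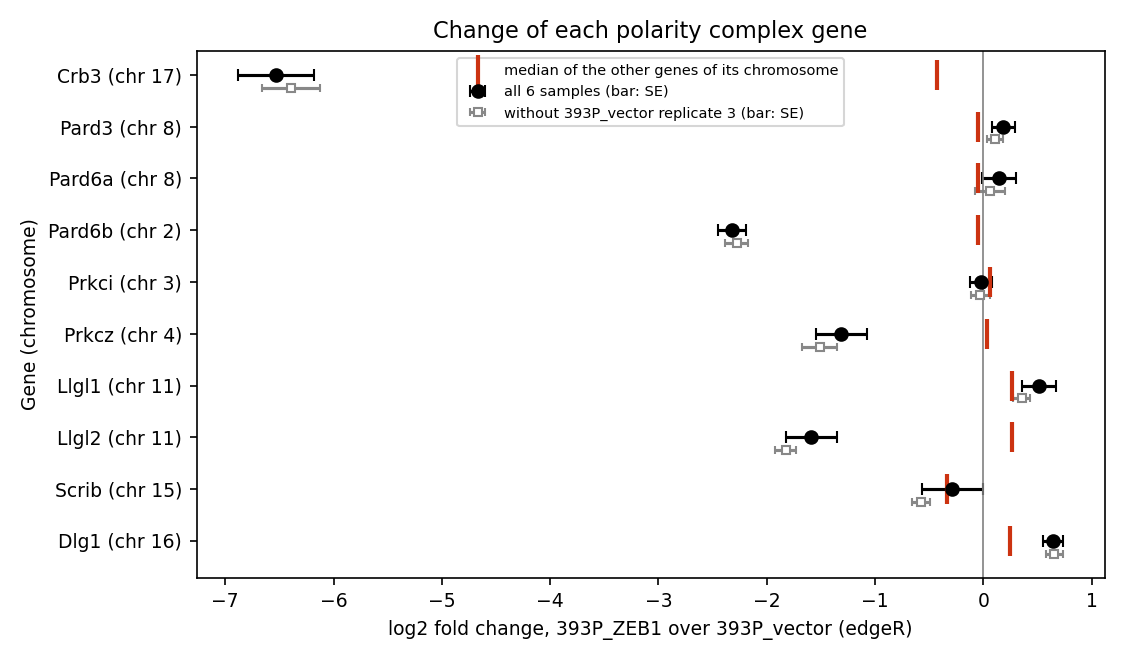
Log2 fold change of each polarity gene, 393P_ZEB1 against 393P_vector, with the standard error as a bar, from all 6 samples (black) and without 393P_vector replicate 3 (open squares), and the median of the other tested genes of its chromosome as a red tick. Crb3 lies at -6.53 and Dlg1 at 0.65, and Scrib moves from -0.29 to -0.57 without that sample.

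In the Scribble complex, Llgl2 fell, Llgl1 and Dlg1 rose, and Scrib did not pass the test. LGL proteins are the basolateral substrates of aPKC. Llgl2 (chr11:115824058-115855780, plus strand) measured 45.7, 51.2 and 26.6 CPM in 393P_vector and 12.9, 13.95 and 14.2 CPM in 393P_ZEB1. The groups did not overlap, and the ZEB1 mean was 3.01-fold lower (log2 fold change -1.59, SE 0.24, adjusted p = 0.00145, edgeR), or -1.82 on the log2 scale without vector replicate 3 (adjusted p = 1.25e-07). Reads exceeded 10 on all 27 of its exons in each vector sample and on 18, 21 and 22 of them in the ZEB1 samples. The fall was set against a chromosome 11 median of 0.27 for the other tested genes.

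Its paralog Llgl1 (chr11:60699690-60714188, plus strand) measured 183, 183 and 125 CPM in 393P_vector and 219.6, 249.8 and 233 CPM in 393P_ZEB1. All ZEB1 samples lay above all vector samples (log2 fold change 0.51, SE 0.16, adjusted p = 0.039, edgeR). The call was close to the threshold: the adjusted p was 0.0818, 0.121 and 0.0963 without ZEB1 replicate 1, 2 and 3, and relative to its chromosome, where the other genes had a median of 0.26, the log2 fold change was 0.25 (adjusted p = 0.285). Without vector replicate 3 it was 0.35 (adjusted p = 0.0039). Of its 4862 exonic bases in the GENCODE annotation, 64 (1.32%) overlap Flii on the opposite strand.

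Dlg1 encodes a PDZ-domain scaffold of the MAGUK family that joins Scribble at lateral contacts. The gene (chr16:31663443-31873356, plus strand) measured 201, 195 and 202 CPM in 393P_vector and 326, 297 and 312 CPM in 393P_ZEB1. It was higher in every ZEB1 sample, with a 1.57-fold higher mean (log2 fold change 0.65, SE 0.09, adjusted p = 0.00122, edgeR). The other tested genes of chromosome 16 had a median of 0.25, and relative to them the log2 fold change of Dlg1 was 0.40 (adjusted p = 0.0137).

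Scrib encodes the large scaffold with leucine-rich repeats and PDZ domains that names the complex. The gene (chr15:76047186-76069730, minus strand) measured 325, 366 and 157 CPM in 393P_vector and 226, 222 and 247 CPM in 393P_ZEB1. Vector replicate 3 was below every ZEB1 sample and the other vector samples were above them all, so that the groups overlapped (log2 fold change -0.29, SE 0.28, adjusted p = 0.457, edgeR). Without that sample the log2 fold change was -0.57 (SE 0.08, adjusted p = 0.000254), and with limma voom and sample weights it was -0.52 (adjusted p = 0.00132). Relative to the other genes of chromosome 15, whose median was -0.33, it was 0.05 (adjusted p = 0.92). Vector replicate 3 lay below the mean of the other vector samples for Scrib by 54.4%, for Llgl2 by 45.1%, for Prkcz by 37.9% and for Llgl1 by 31.7%, while Dlg1 was at 102% and Prkci at 98.7% of that mean.

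On the scale of CPM per kilobase of exon, Prkci was highest in both groups, at 74.2 ± 1.28 (SD, n = 3) in 393P_vector and 73.0 ± 6.26 (SD, n = 3) in 393P_ZEB1. In 393P_vector it was followed by Scrib at 51.3, Llgl1 at 37.2 and Dlg1 at 36.0, where neighbours overlapped, then by Pard6b at 29.8, Pard3 at 15.1, Llgl2 at 11.5 and Crb3 at 8.63, of which Pard3 and Llgl2, and Llgl2 and Crb3, overlapped. Pard6a at 5.12 and Prkcz at 1.57 were lowest, and the range from highest to lowest mean was 47.2-fold. The overlaps rest on vector replicate 3, which all these means include. In vector replicates 1 and 2, Scrib was at 58.9 and 66.4, Llgl1 at 41.6 in both and Dlg1 at 36.3 and 35.2. Pard3 was there at 16.3 and 15.7, Llgl2 at 12.7 and 14.3 and Crb3 at 7.62 and 8.10, without overlap. In 393P_ZEB1, Dlg1 at 56.3 and Llgl1 at 53.1 overlapped and stood above Scrib at 42.1 and Pard3 at 17.2. Pard6b at 5.95 and Pard6a at 5.65 overlapped, and Llgl2 at 3.81, Prkcz at 0.632 and Crb3 at 0.0899 were lowest, so that the range was 812-fold. That range divides by Crb3, which had only 2, 7 and 9 reads in these samples, so its size is imprecise.

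In each of the 3 pairs of paralogs, the gene that fell made up a smaller share of the pair in every ZEB1 sample than in any vector sample. Per kilobase, Pard6b made up 83.5%, 84.8% and 87.5% of the summed Pard6a and Pard6b level in the vector samples and 49.4%, 55.8% and 48.5% in the ZEB1 samples. Llgl2 made up 23.4%, 25.5% and 20.7% of the summed Llgl1 and Llgl2 level in the vector samples and 6.72%, 6.42% and 6.95% in the ZEB1 samples. Prkcz made up 2.35%, 2.37% and 1.496% of the summed aPKC level in the vector samples and 0.853%, 0.932% and 0.781% in the ZEB1 samples. The log2 ratio of the other paralog to the one that fell was higher in 393P_ZEB1 by 2.47 for Pard6a to Pard6b, by 2.07 for Llgl1 to Llgl2 and by 1.27 for Prkci to Prkcz. No groups overlapped, and each exact permutation test (two-sided, n = 3 per group) gave p = 0.1, also 0.1 after adjustment over the 3 pairs, which is the smallest value that 3 samples against 3 allow. Each ratio contains a gene already called lower, so its direction largely restates that fall and is no separate support. Per kilobase, the PAR6 genes Pard6a, Pard6b and Pard6g summed to 36.8 ± 1.41 in 393P_vector and 15.3 ± 1.22 in 393P_ZEB1 (SD, n = 3), 41.6% of the vector level, with no overlap. The aPKC genes summed to 75.8 ± 1.503 and 73.7 ± 6.35 and the LGL genes to 48.7 ± 11.2 and 57.0 ± 3.57 (SD, n = 3), and in both families the groups overlapped. These sums were not tested.

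**Figure D3:**
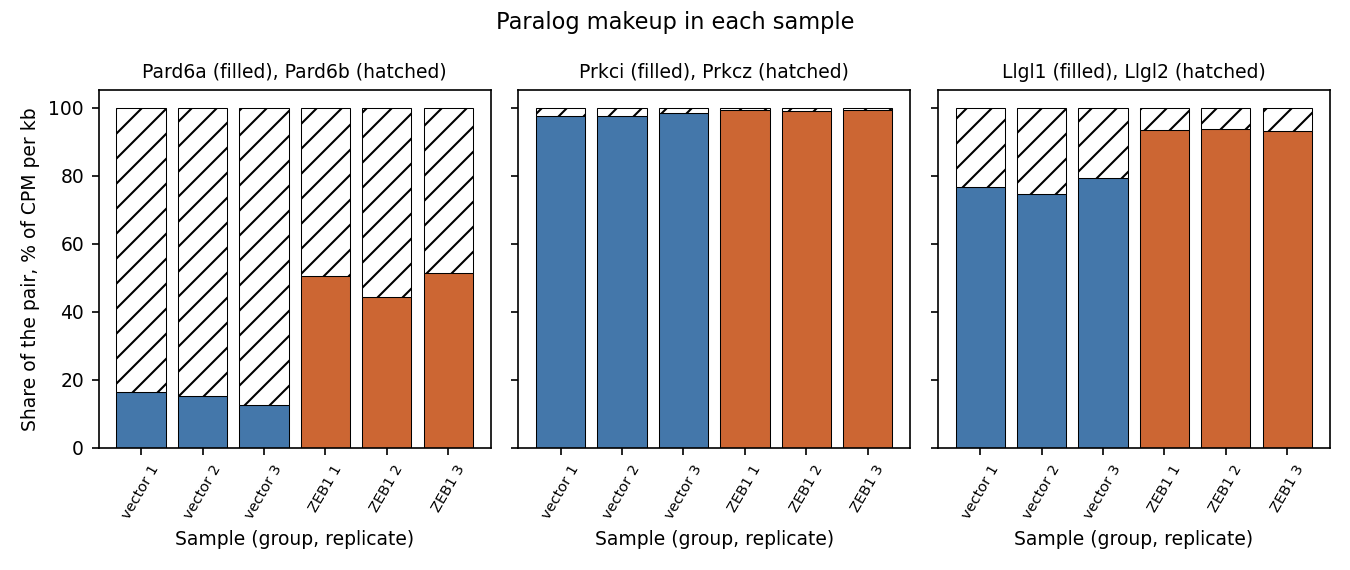
Share of the summed level per kilobase (percent) held by each gene of a pair of paralogs, as a stacked bar for each sample of 393P_vector (blue) and 393P_ZEB1 (orange), with Pard6b, Prkcz and Llgl2 hatched. The share of Pard6b was between 83.5% and 87.5% in the vector samples and between 48.5% and 55.8% in the ZEB1 samples.

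Binding partners and regulators of the 3 complexes moved in both directions. Of 52 listed, 48 were tested (Crb1, Lin7a, Lin7b and Lrrc7 had too few reads), and 13 rose, 10 fell and 25 did not pass the test. That is 47.9% called, beside the 37.6% of all tested genes, with a median log2 fold change of 0.10. All values that follow are mean CPM in 393P_vector and then 393P_ZEB1, with the log2 fold change and the adjusted p of edgeR.

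Of 9 tested partners of Crumbs, 3 fell and 1 rose (44.4% called). Amotl1, an angiomotin, fell from 347 to 216 CPM (log2 fold change -0.69, adjusted p = 0.00949) and Amot from 68.0 to 49.3 CPM (-0.46, adjusted p = 0.0223). Inadl, the older symbol of the PDZ scaffold gene Patj, fell from 79.8 to 52.1 CPM (-0.61, adjusted p = 0.0105). Its relative Mpdz, which encodes the multi-PDZ protein MUPP1, rose from 33.3 to 68.2 CPM (1.04, adjusted p = 0.00528).

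Of 16 tested partners of the PAR-aPKC complex, 4 rose and 2 fell, or 37.5% called, close to the 37.6% of all tested genes. Mark1, a kinase of the PAR1 family that opposes PAR3, rose from 0.299 ± 0.183 to 5.08 ± 0.274 CPM (SD, n = 3; log2 fold change 4.03, adjusted p = 0.00019). It had 6, 19 and 39 reads in the vector samples and entered the test through its reads in 393P_ZEB1. Its family member Mark3 fell from 117 to 67.7 CPM (-0.78, adjusted p = 0.000621). Pard3b, the paralog of Pard3, rose from 0.540 to 1.38 CPM (1.34, adjusted p = 0.00318). Its reads were few, 25, 31 and 54 in the vector samples and 74, 85 and 75 in the ZEB1 samples. Over 10 reads were counted on only 1 of its 23 exons in every sample. Pard6g, the third PAR6 gene, rose from 5.97 to 11.7 CPM (0.96, adjusted p = 0.00369) on chromosome 18, where the other tested genes had a median of 0.64. Stk11, which encodes the kinase LKB1 that activates PAR1 kinases, fell from 81.9 to 52.2 CPM (-0.65, adjusted p = 0.00588), or by 0.35 on the log2 scale after subtracting the median of its chromosome.

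Of 16 tested partners of the Scribble complex, 7 rose and 3 fell (62.5% called). The MAGUK genes Mpp2 and Dlg4 rose from 5.65 to 13.6 CPM (log2 fold change 1.26, adjusted p = 0.00061) and from 26.3 to 46.7 CPM (0.82, adjusted p = 0.000591). Erbb2ip and Lrrc1 encode proteins with leucine-rich repeats, which Scribble also has, and moved in opposite directions. Erbb2ip rose from 219 to 379 CPM (0.79, adjusted p = 0.00556), and Lrrc1 fell from 24.8 to 9.26 CPM (-1.42, adjusted p = 6.9e-05). Stxbp5, a relative of the LGL genes, fell from 36.5 to 15.2 CPM (-1.27, adjusted p = 0.000137), and the MAGUK gene Mpp6 fell from 109 to 82.5 CPM (-0.40, adjusted p = 0.0178). The other tested genes of the chromosome of Mpp6 had a median of -0.36, leaving a difference of -0.047. Mpp7, also counted among the MAGUK genes that rose (0.43, adjusted p = 0.0295), lay at -0.21 after subtracting the median of its chromosome, and is named here after its values were seen.

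Of 7 genes in the list of FERM-domain regulators and apical ERM proteins, which also holds Slc9a3r1, 1 rose and 2 fell (42.9% called). ERM proteins tie membrane proteins to actin. Epb4.1l4b fell from 2.48 to 0.875 CPM (log2 fold change -1.503, adjusted p = 0.00108) and Msn, which encodes moesin, from 1689 to 1275 CPM (-0.41, adjusted p = 0.0229). Epb4.1l4a, also on chromosome 18, measured 89.3 and 113 CPM and was called higher (0.34, adjusted p = 0.0228), but lay at -0.30 after subtracting the chromosome median of 0.64, so that the direction turned. Without vector replicate 3, 17 partners rose and 15 fell, in a fit that called 53.0% of all tested genes, and without ZEB1 replicate 2, 9 rose and 6 fell, where 26.0% of all tested genes were called.

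**Figure D4:**
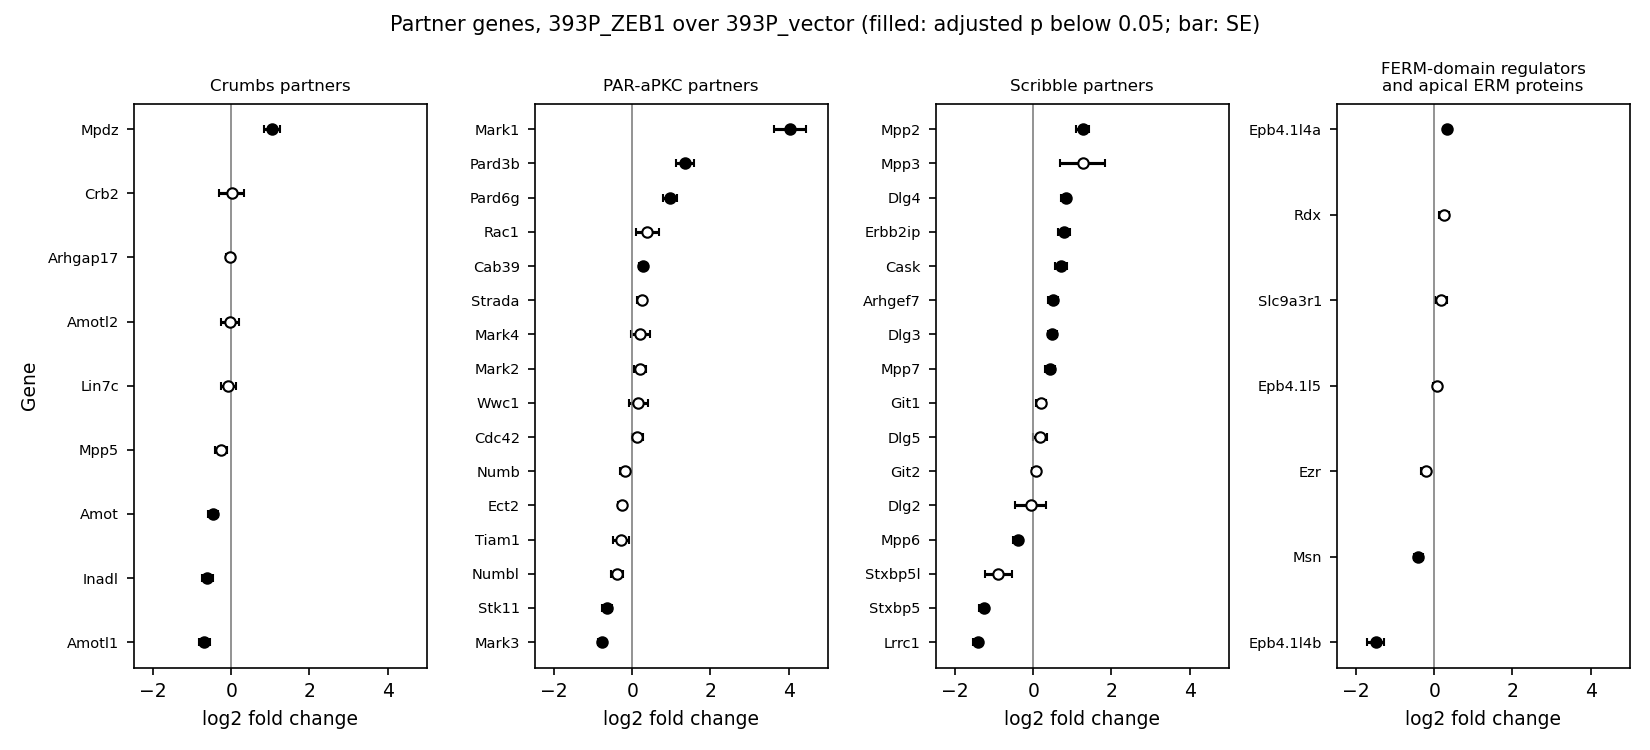
Log2 fold change of the tested partner genes, 393P_ZEB1 against 393P_vector, in a panel per role, with the standard error as a bar and filled points for genes with an adjusted p below 0.05. Mark1 lies highest at 4.03, and the lowest are Epb4.1l4b at -1.503 and Lrrc1 at -1.42.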

How the data were processed

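RNA of 3 393P_vector and 3 393P_ZEB1 samples was analysed from tables the authors deposited, 1 per sample, each with 24214 RefSeq gene entries. They hold whole-number read counts per gene, which the authors did not normalize, RPKM values that the authors computed from counts and exon length, and the number of exons with more than 10 reads. The aligner and counter are not given in the sources used here. Coordinates match GRCm38. Features counted at more than 1 locus (1073) were kept as separate features.

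Counts were tested with edgeR 4.0.16 (quasi-likelihood, robust, TMM, filterByExpr with a minimum count of 10, Benjamini-Hochberg adjustment over 13892 genes, threshold 0.05) in R 4.3.3, with group as the sole term. The methods name no test for these counts. The biological coefficient of variation was 0.184. CPM used TMM-scaled library sizes, and levels per kilobase used the exon length in the tables. Every pair of samples of a group differed beyond sampling noise. Same-numbered samples did not deviate together as a set: r was 0.279, -0.205 and -0.0377 for replicates 1, 2 and 3 (mean 0.0118). For unequal numbers r ranged from -0.182 to 0.222 (mean -0.011). Replicate numbers were therefore not used as pairs. Scripts were tested on simulated data.

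The genes and lists were chosen with earlier results of these data known. Named were the 10 polarity genes and, per role of partner, up to 3 with the largest increase and decrease among those called. Alternatives were DESeq2 1.42.0, limma 3.58.1 voom, other filters and scalings, a replicate block and leaving out each sample. Figures were drawn with matplotlib 3.10.9.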

Additional observations from a re-analysis of the deposited data

How the results depend on the processing

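Of 139 alternative fold changes of the 10 polarity genes, 131 kept their direction and their side of the threshold. Crb3, Pard6b, Prkcz, Llgl2 and Dlg1 passed the threshold under every alternative that tested them. Crb3 was not tested where 10 counts were required in every sample. Leaving out 1 sample, the number of polarity genes that rose was 1 to 2 and that fell 4 to 5, partners that rose 9 to 17 and that fell 6 to 15, and all genes that rose 1861 to 3700 and that fell 1784 to 3776. With limma voom, 17 partners rose and 17 fell, and 3977 of all genes rose and 4094 fell, 58.1% of those tested. Centred on each chromosome, 1 polarity gene rose and 4 fell, where 30.4% of all tested genes were called. Llgl1 was then at 0.25 and Scrib reversed to 0.049. Over the samples left out, Llgl1 ranged from 0.35 to 0.61, Scrib from -0.57 to -0.05 and Prkci from -0.068 to 0.055, above 0 without ZEB1 replicate 3. Scrib was at -0.52 with limma voom. The cause of these shifts was not tested. A replicate block was not called for by the correlations of same-numbered samples. With it, the same 6 polarity genes passed the test, where 31.9% of all tested genes were called. In that fit Llgl1 was at 0.53 (adjusted p = 0.0449, edgeR) and Dlg1 at 0.65, and 10 partners rose and 9 fell. The 2 to 9 reads of Crb3 per ZEB1 sample limit the precision of its fold change.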
